A study of Homo sapiens with 4 samples.

Results

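The genes that encode the proteasome, its regulators and its assembly factors were followed in 2 human endometrial cancer cell lines. Their members were taken from the raw count table as every feature whose symbol starts with PSMA, PSMB, PSMC, PSMD, PSME, PSMF or PSMG followed by a digit, with hyphenated read-through names left out. The rule gave 49 of 22494 features, and no hyphenated name matched it. By role, 48 of them fall into the alpha ring (7 genes) and constitutive beta ring (7) of the 20S core, the ATPases (6) and non-ATPase subunits (11) of the 19S cap, the immunoproteasome subunits with the activator genes PSME1 and PSME2 (5), other regulators (3), assembly factors (7) and 2 core subunits restricted to testis or thymus. The remaining member, PSMC3IP, shares the prefix but encodes a partner of meiotic recombinases and not a proteasome subunit, and its values are given apart.

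The proteasome is the protease that degrades ubiquitin-tagged proteins in the cytosol and the nucleus. Its barrel-shaped 20S core is built from alpha rings that gate the channel and beta rings that hold the catalytic sites, and the 19S cap binds ubiquitin chains, removes them and unfolds the substrate with a ring of ATPases. Interferon-inducible catalytic subunits replace the constitutive ones in the immunoproteasome, which shifts the peptides available for antigen presentation.

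RL-95-2 and HEC-1-A, both established lines from endometrial cancers, were studied after transfection with either the tRF-20-S998LO9D mimic, which copies a fragment of a transfer RNA, or its negative control. Each line contributed 1 mimic library and 1 control library, 4 in all, of poly(A)-selected RNA read in pairs of 150 bases. No dose or time after transfection is given in the labels, and nothing in them says whether cells of a line were cultured separately for each library. The comparisons are therefore mimic over control within each line and over both lines, and RL-95-2 over HEC-1-A.

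Library totals were 46220053 counts with mimic and 39999621 with control in RL-95-2, and 45970431 with mimic and 33575882 with control in HEC-1-A. All 5 epithelial markers (EPCAM, CDH1, KRT8, KRT18 and KRT19) were detected in every library, with a summed level of 3369 and 1871 CPM (counts scaled by library size and by trimmed mean of M values) in RL-95-2 mimic and control, and 905 and 1053 CPM in HEC-1-A mimic and control. KRT8 alone stood at 1444 CPM in the RL-95-2 mimic library and 388 CPM in its control library, so the 2 RL-95-2 libraries differ in genes far from the proteasome. Of 4 stromal markers, DCN and HAND2 were at 0 in every library, and the summed level was 57.0 and 78.8 CPM in RL-95-2 mimic and control and 7.75 and 3.86 CPM in HEC-1-A mimic and control, mostly COL1A1. The 3 endothelial markers summed to 24.7 and 14.2 CPM in RL-95-2 mimic and control, nearly all CDH5, with PECAM1 at 0 in both. In HEC-1-A mimic and control they summed to 0.201 and 0 CPM. The 6 blood and immune markers summed to 21.8 and 11.3 CPM in RL-95-2 mimic and control and to 6.66 and 4.20 CPM in HEC-1-A mimic and control, mostly CD74, while the leukocyte gene PTPRC was at 0 in 3 libraries and at 0.0604 CPM in the HEC-1-A control. The part of these markers in the proteasome results was not tested.

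Genes of the core and the cap were expressed in every library. The FPKM scale, which divides by transcript length and library size, served to compare genes. For some genes the deposited FPKM did not follow counts and library size alone, and the cause was not tested. PSMG4 had 801 and 533 counts in RL-95-2 mimic and control but 6.79 and 6.83 FPKM. On this scale the 14 constitutive core genes summed to 1618 in the RL-95-2 mimic library and 1036 in its control. In HEC-1-A they summed to 1124 with mimic and 1092 with control. The 17 genes of the 19S cap summed to 1178 and 802 FPKM in RL-95-2 mimic and control, and to 948 and 919 FPKM in HEC-1-A mimic and control. All 48 genes with a role made up 0.953% of all FPKM in the RL-95-2 mimic library, against 0.665% in its control, and 0.676% and 0.662% in HEC-1-A mimic and control. The RL-95-2 mimic library thus stood above the other 3, which were close to each other.

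Within the core, PSMA5 had the lowest level in every library, at 25.4 and 22.2 FPKM in RL-95-2 mimic and control and 20.5 and 19.9 FPKM in HEC-1-A mimic and control. The highest core gene was PSMB4 in the RL-95-2 mimic library at 187 FPKM, PSMA6 in the RL-95-2 control at 144 FPKM, and PSMA7 in HEC-1-A mimic and control at 199 and 186 FPKM. The highest core gene exceeded the lowest by 7.37-fold and 6.49-fold in RL-95-2 mimic and control and by 9.69-fold and 9.36-fold in HEC-1-A mimic and control, although both stand in the same complex. Assembly factors had a median of 26.2 and 21.5 FPKM in RL-95-2 mimic and control and 18.1 and 15.3 FPKM in HEC-1-A mimic and control, below the medians of 109, 63.6, 75.2 and 72.4 FPKM of the constitutive core in the same order.

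**Figure D1:**
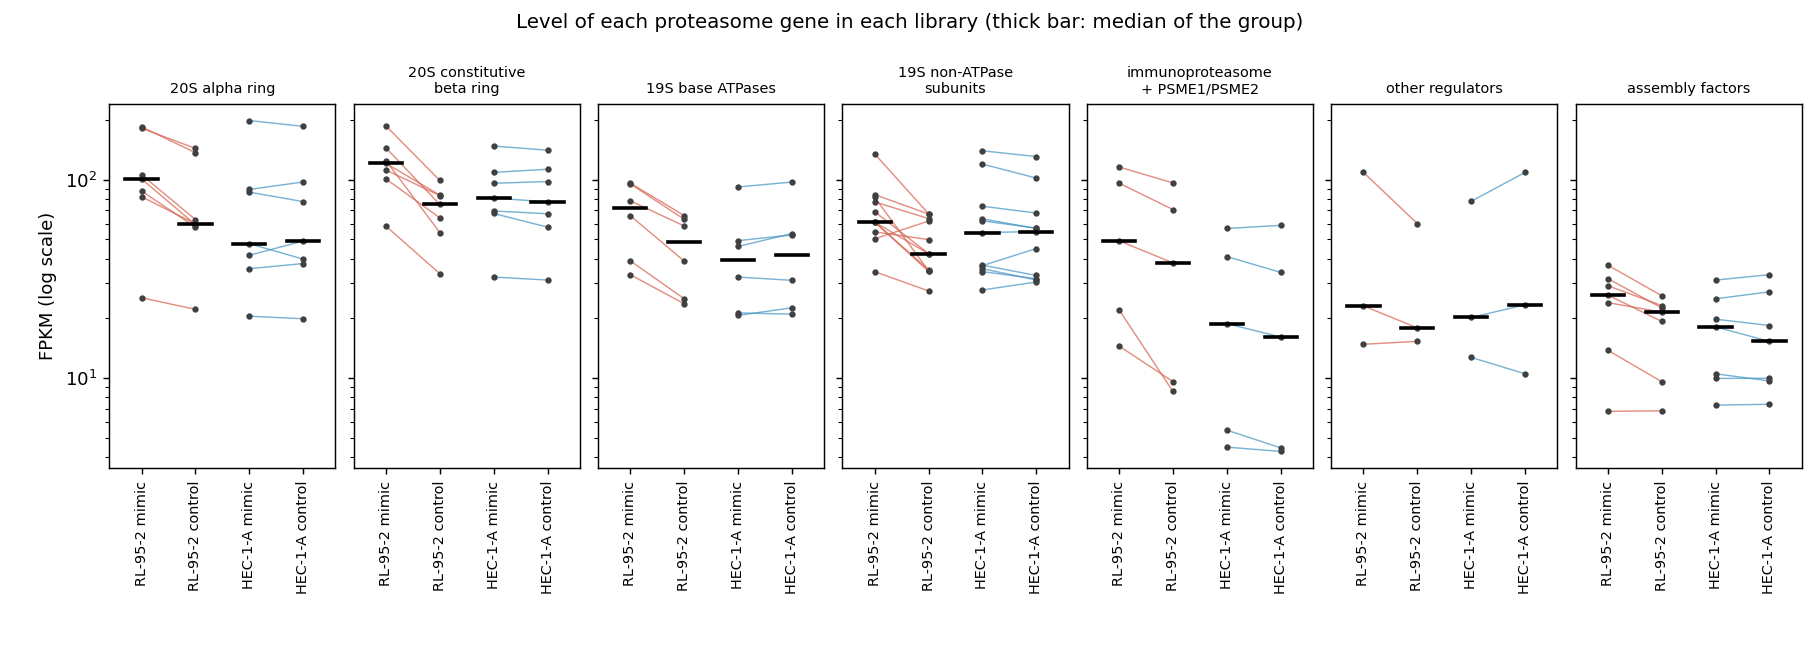
FPKM on a log axis of each proteasome gene in each of the 4 libraries, in a panel per role group; points of the same gene are joined within a line and the thick bar is the group's median. In RL-95-2 most lines slope down toward the control library, with a median of the constitutive beta ring of 121 FPKM with mimic and 75.1 FPKM with control, whereas the joined points of HEC-1-A are nearly level.

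In RL-95-2 nearly all proteasome genes stood at a higher scaled level in the mimic library than in the control library, and in HEC-1-A the levels were nearly the same. Scaled levels are relative to the rest of the library and do not give the amount of RNA in a cell. The log2 ratio of mimic over control was above 0 for 43 of 46 measured genes with a role in RL-95-2, with a median of 0.40 (1.32-fold), beside 50.1% of all 13151 features measured in that line and a median of 0.00 over them. In HEC-1-A it was above 0 for 32 of 46, with a median of 0.09 (1.06-fold), beside 53.6% of 12981 features and a median of 0.02. Among features that averaged 50 CPM or more, a level that most proteasome genes reach, the median was -0.07 in RL-95-2 and 0.01 in HEC-1-A, with 44.4% and 53.4% of features above 0. The middle range of the 46 ratios ran between 0.23 and 0.62 in RL-95-2 and between -0.04 and 0.16 in HEC-1-A. Features whose 2 libraries of the line averaged 1 CPM or more counted as measured.

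The differences were modest in size and their spread between cultures is unknown. At least 2-fold higher with the mimic in RL-95-2 were 3 of 46 genes (PSMB9, PSMD3 and PSMB3), a share near the 4.71% of all features in that line. That set moves with the scaling: with GC and length trends removed, an alternative chosen after seeing the data, PSMB3 came to 0.93, and as a log2 ratio of FPKM PSMD2 came to 1.01. None was at least 2-fold lower, beside 6.52% of features. In HEC-1-A none was at least 2-fold higher or lower, beside 0.871% and 0.239% of features. The exact 95% counting interval of the ratio, which covers counting error only, lay above 0 for 42 of 46 genes and below 0 for 2 in RL-95-2, beside 39.9% and 40.5% of features in that line. In HEC-1-A it lay above 0 for 24 and below 0 for 9, beside 29.5% and 23.6% of features. Such intervals narrow with depth, and 38 of the genes averaged 50 CPM or more over all libraries. Among all features at that level the shares above and below 0 were 37.9% and 51.2% in RL-95-2 and 36.1% and 31.0% in HEC-1-A. The ratio was larger in RL-95-2 than in HEC-1-A for 40 of 46 genes, with a median difference of 0.31. Beside them stand 49% of the 11913 features measured in both lines, and 43.5% of those that averaged 50 CPM or more. In 10 members the ratios had opposite signs in the lines with both intervals clear of 0, beside 26.9% of the features measured in both lines, a share of the members no higher than the background. With 1 library for each line and transfection that difference between the lines could not be tested.

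Over both lines, none of 47 members tested passed edgeR's quasi-likelihood test with Benjamini-Hochberg adjustment for mimic over control, beside 0% of 15957 features. None had an unadjusted p under 0.05 in edgeR either, beside 1.05% of features, while DESeq2 and limma on log2(FPKM + 0.1) each put 1 member under it. PSMD2 ranked first by p, with a fitted log2 fold change of 0.57 and an adjusted p of 0.9999 in edgeR, and was higher with the mimic in both lines. The test has 1 residual degree of freedom, which holds how far the ratio differs between the 2 lines. A difference in 1 line only counts there as spread and can hardly pass, so the test cannot decide on it. The higher ratios in RL-95-2 are values of 2 libraries and are not shown to be a response to the mimic. In bulk RNA, more RNA per cell and a larger share of cells that express a gene cannot be told apart.

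**Figure D2:**
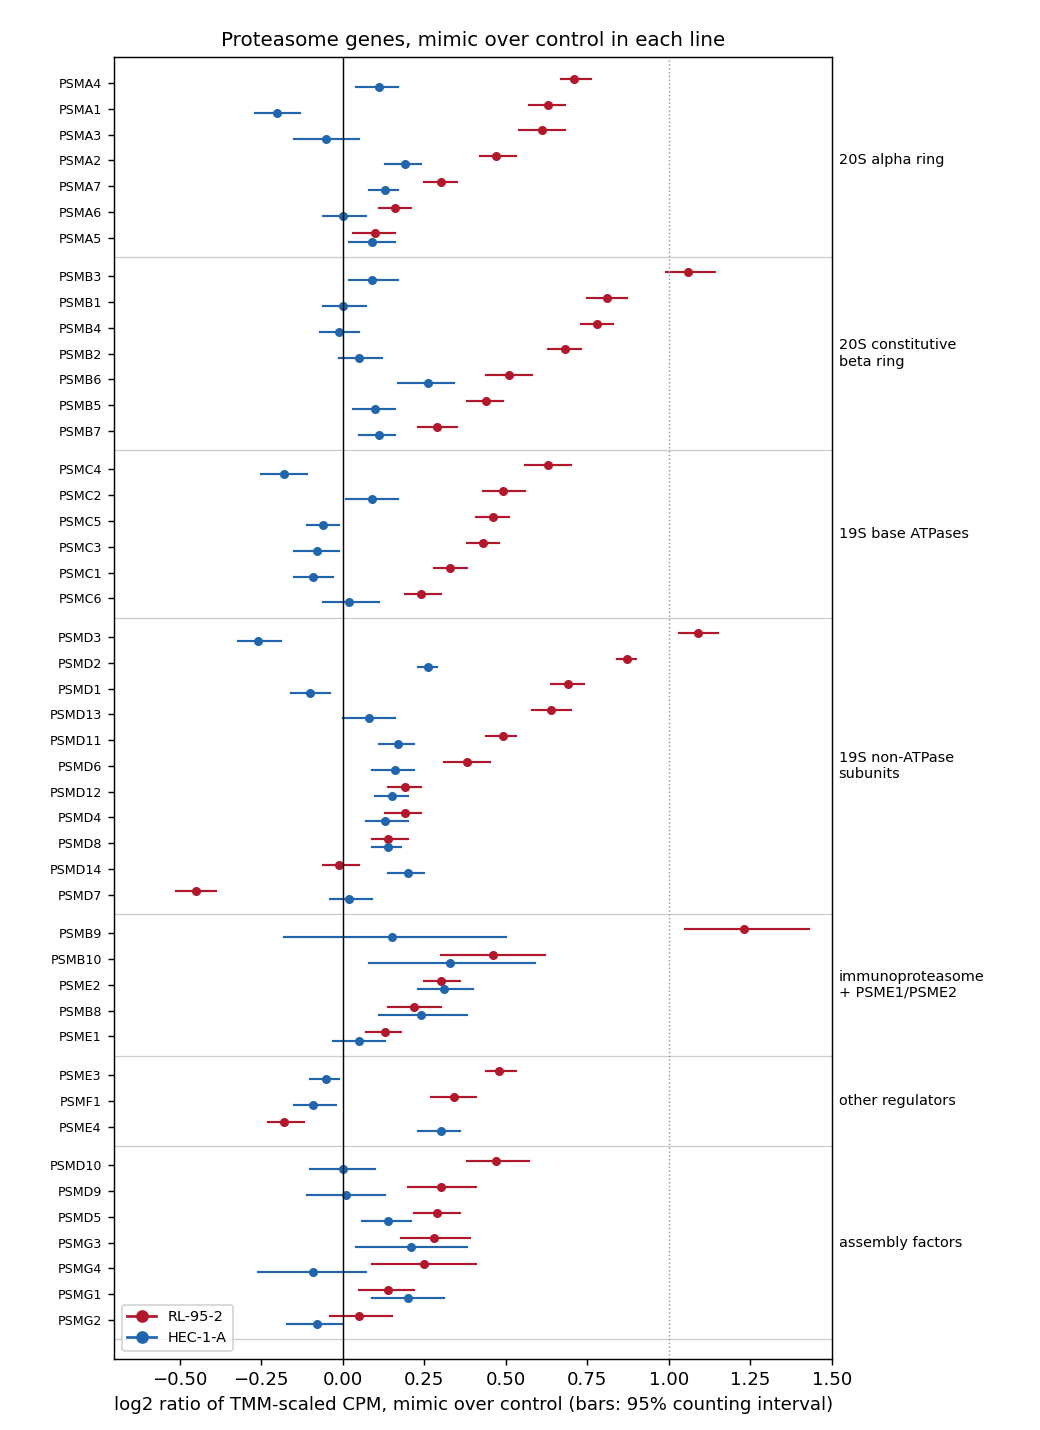
Log2 ratio of TMM-scaled CPM, mimic over control, for each measured proteasome gene in RL-95-2 (red) and HEC-1-A (blue), by role group; bars are exact 95% counting intervals and each point compares 1 library with 1. Red points lie right of 0 for 43 of 46 genes, up to 1.23 for PSMB9, while blue points lie between -0.26 and 0.33.

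All 7 genes of the 20S alpha ring, the gate of the barrel, were higher with the mimic in RL-95-2, with a median log2 ratio of 0.47, and 5 of 7 had a ratio above 0 in HEC-1-A, with a median of 0.09. The highest in RL-95-2 was PSMA4, at 222 CPM with mimic and 136 CPM with control (0.71, 95% interval 0.67 to 0.76), beside 111 and 103 CPM in HEC-1-A mimic and control (0.11, 0.04 to 0.17). The lowest in RL-95-2 was PSMA5, at 98.3 and 91.9 CPM with mimic and control (0.10, 0.03 to 0.16), next to 86.9 and 81.9 CPM in HEC-1-A mimic and control (0.09, 0.02 to 0.16). PSMA5 therefore had like ratios in both lines, whereas PSMA1 had opposite ones. PSMA1 stood at 161 and 104 CPM in RL-95-2 mimic and control (0.63) and at 73.0 and 84.0 CPM in HEC-1-A mimic and control (-0.20). PSMA2 had the highest ratio of the ring in HEC-1-A, at 148 CPM with mimic and 130 CPM with control (0.19, 0.13 to 0.24).

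The constitutive beta ring had the highest median of all role groups in RL-95-2, 0.68 with 7 of 7 genes above 0, against 0.09 with 6 of 7 in HEC-1-A. PSMB3, a structural beta subunit without a catalytic site, stood at 102 CPM with mimic and 48.6 CPM with control in RL-95-2 (2.09-fold, log2 ratio 1.06, 0.99 to 1.14). In HEC-1-A it stood at 72.4 CPM with mimic and 67.8 CPM with control (0.09, 0.02 to 0.17). PSMB1, PSMB4 and PSMB2, also without catalytic sites, followed in RL-95-2 with ratios of 0.81, 0.78 and 0.68, beside 0.00, -0.01 and 0.05 in HEC-1-A. All 4 non-catalytic beta genes thus exceeded the 3 catalytic ones in RL-95-2.

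The 3 catalytic beta genes were higher with the mimic by smaller ratios. PSMB5, the chymotrypsin-like subunit and the main target of proteasome inhibitor drugs, stood at 152 and 112 CPM in RL-95-2 mimic and control (0.44, 0.38 to 0.49) and at 95.9 and 89.8 CPM in HEC-1-A mimic and control (0.10, 0.03 to 0.16). PSMB6, the caspase-like subunit, stood at 90.4 and 63.5 CPM in RL-95-2 mimic and control (0.51, 0.44 to 0.58) and at 66.7 and 55.8 CPM in HEC-1-A mimic and control (0.26, 0.17 to 0.34). PSMB7, the trypsin-like subunit, stood at 116 and 94.3 CPM in RL-95-2 mimic and control (0.29, 0.23 to 0.35) and at 168 and 156 CPM in HEC-1-A mimic and control (0.11, 0.05 to 0.16). The counting intervals of all 3 catalytic genes lay above 0 in both lines, the level of PSMB7 was the only catalytic one lower in RL-95-2 than in HEC-1-A in both transfections, and none of the 3 passed the edgeR test over both lines.

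The 19S cap was likewise higher in RL-95-2, with a median of 0.43 over its 17 genes (15 above 0) against 0.08 in HEC-1-A (11 above 0). Its 6 ATPases, which unfold the substrate and thread it into the core, all had ratios above 0 in RL-95-2, between 0.24 for PSMC6 and 0.63 for PSMC4. In HEC-1-A only 2 of 6 were above 0, between -0.18 for PSMC4 and 0.09 for PSMC2. PSMC4 was the extreme in both lines, at 109 and 70.6 CPM in RL-95-2 mimic and control and 85.0 and 96.3 CPM in HEC-1-A mimic and control. PSMC6 stood at 129 and 109 CPM in RL-95-2 mimic and control and at 59.2 and 58.3 CPM in HEC-1-A mimic and control, so its line difference exceeded its difference between transfections. PSMC2 stood at 111 and 78.6 CPM in RL-95-2 mimic and control (0.49) and at 66.6 and 62.7 CPM in HEC-1-A mimic and control (0.09).

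The 11 non-ATPase genes of the cap spread the most in RL-95-2, between -0.45 and 1.09 with 9 above 0. PSMD3, a scaffold subunit of the lid, stood at 185 CPM with mimic and 87.1 CPM with control in RL-95-2 (2.13-fold, log2 ratio 1.09, 1.03 to 1.15), the reverse order of the 92.3 and 110 CPM in HEC-1-A mimic and control (-0.26, -0.32 to -0.19). Its difference in ratio between the lines, 1.34, was the highest of all members. PSMD2, the base subunit that docks ubiquitin receptors, stood at 491 and 269 CPM in RL-95-2 mimic and control (0.87) and at 480 and 400 CPM in HEC-1-A mimic and control (0.26), the highest ratio of the group in HEC-1-A. PSMD7 and PSMD14, which form the pair that cuts ubiquitin chains off substrates, had the lowest ratios of the group in RL-95-2. PSMD7 stood at 87.1 CPM with mimic and 119 CPM with control in RL-95-2 (-0.45, -0.51 to -0.39) and at 104 and 102 CPM in HEC-1-A mimic and control (0.02, -0.04 to 0.09). PSMD14, the deubiquitinase itself, stood at 112 and 113 CPM in RL-95-2 mimic and control (-0.01, -0.06 to 0.05) and at 144 and 126 CPM in HEC-1-A mimic and control (0.20, 0.14 to 0.25). Its sign in RL-95-2 is not settled, since the ratio was 0.12 by library total, 0.13 on the FPKM scales and 0.15 with GC and length trends removed. The remaining members PSMD1, PSMD13, PSMD11, PSMD6, PSMD12, PSMD4 (a ubiquitin receptor) and PSMD8 had ratios between 0.14 and 0.69 in RL-95-2 and between -0.10 and 0.17 in HEC-1-A.

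The promoters of the 3 genes that were at least 2-fold higher with the mimic in RL-95-2 are shown because these genes had the highest ratios of CPM between its libraries. RefSeq windows on GRCh38.p14 run 250 bases before to 50 bases after the gene's start and were available for 43 of 49 members. Capitals mark TGACNNNGC, the core of the antioxidant response element to which NFE2L1 and related factors bind, on either strand.

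PSMB9 (chr6:32853942-32854241, plus strand): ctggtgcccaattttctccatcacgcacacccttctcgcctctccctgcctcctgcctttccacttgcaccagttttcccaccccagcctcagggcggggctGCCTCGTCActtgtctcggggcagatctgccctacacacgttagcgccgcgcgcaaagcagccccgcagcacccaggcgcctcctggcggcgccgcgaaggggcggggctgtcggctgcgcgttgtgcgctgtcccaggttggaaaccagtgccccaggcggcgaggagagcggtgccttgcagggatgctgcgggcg
PSMD3 (chr17:39980557-39980856, plus strand): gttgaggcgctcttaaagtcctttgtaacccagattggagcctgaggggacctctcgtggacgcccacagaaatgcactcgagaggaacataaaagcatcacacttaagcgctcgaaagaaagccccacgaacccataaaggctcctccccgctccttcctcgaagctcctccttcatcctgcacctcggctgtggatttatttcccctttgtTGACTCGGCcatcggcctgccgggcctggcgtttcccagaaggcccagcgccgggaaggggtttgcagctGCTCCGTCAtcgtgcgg
PSMB3 (chr17:38752491-38752790, plus strand): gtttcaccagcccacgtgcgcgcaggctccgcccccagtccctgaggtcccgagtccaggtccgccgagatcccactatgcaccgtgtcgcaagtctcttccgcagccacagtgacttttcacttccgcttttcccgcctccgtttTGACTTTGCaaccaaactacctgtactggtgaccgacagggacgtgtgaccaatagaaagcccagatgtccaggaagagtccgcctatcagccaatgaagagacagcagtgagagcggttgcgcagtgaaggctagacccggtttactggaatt

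All 3 windows held the motif, at -148 from the start in PSMB9, at -37 and 34 in PSMD3 and at -104 in PSMB3, counted at the motif's leftmost base. Over all members 13 of 43 windows held it (30.2%), against 13.3% of 35116 RefSeq promoters of the same length. It was in 0 of 6 windows of the alpha ring, 1 of 4 of the constitutive beta ring, 1 of 6 of the ATPases and 3 of 10 of the non-ATPases. It was in 3 of 5 of the immunoproteasome group, 1 of 3 of the other regulators and 4 of 6 of the assembly factors. Of the genes next in RL-95-2 ratio with a window, PSMD2 (0.87), PSMB4 (0.78) and PSMA4 (0.71) held none, and PSMD1 (0.69) held 1. Whether motif and ratio go together was not tested. The CCAAT box, searched on both strands as well, was in 20 of 43 member windows (46.5%) and in 34.6% of all promoters. PSMC3IP is among those 20. The heat shock element core GAANNTTC was in 1 of 43 (2.33%), the window of PSMC3IP, and in 6.77% of all promoters. These are matches of letters in a window and not measured binding sites.

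Among the other regulators, PSME3, a nuclear activator of the core, stood at 251 and 179 CPM in RL-95-2 mimic and control (0.48, 0.44 to 0.53) and at 210 and 217 CPM in HEC-1-A mimic and control (-0.05, -0.10 to -0.01). PSME4, the activator known as PA200, ran the opposite way, at 111 and 125 CPM in RL-95-2 mimic and control (-0.18, -0.23 to -0.12) and at 104 and 84.8 CPM in HEC-1-A mimic and control (0.30, 0.23 to 0.36). PSMF1, which encodes the inhibitor PI31, stood at 88.9 and 70.2 CPM in RL-95-2 mimic and control (0.34) and at 92.3 and 98.1 CPM in HEC-1-A mimic and control (-0.09). All 3 therefore had opposite signs in the 2 lines.

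All 7 assembly factors were above 0 in RL-95-2, with a median of 0.28, and 4 of 7 in HEC-1-A, with a median of 0.01. PSMD10 (gankyrin), a chaperone of the cap's base, stood at 50.4 and 36.4 CPM in RL-95-2 mimic and control (0.47, 0.38 to 0.57) and at 43.4 CPM in both HEC-1-A libraries. PSMG1 to PSMG4, which build the alpha ring, had ratios between 0.05 (PSMG2) and 0.28 (PSMG3) in RL-95-2 and between -0.09 (PSMG4) and 0.21 (PSMG3) in HEC-1-A. PSMD5 and PSMD9, also chaperones of the base, had 0.29 and 0.30 in RL-95-2 and 0.14 and 0.01 in HEC-1-A.

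All 5 immunoproteasome genes were higher in RL-95-2 than in HEC-1-A and passed edgeR's quasi-likelihood test with Benjamini-Hochberg adjustment, as did 9 of 47 members in all (8 higher and 1 lower in RL-95-2), beside 35.1% of all features called and 18.3% called higher. The share of members called, 19.1%, was below that background, and these calls do not concern the mimic. Each line entered the test with its mimic and its control library and not with replicate cultures, and the fit has 1 residual degree of freedom. PSMB8, the inducible counterpart of PSMB5, stood at 60.9 and 52.3 CPM in RL-95-2 mimic and control and at 25.8 and 21.9 CPM in HEC-1-A mimic and control (log2 fold change 1.25, SE 0.23, adjusted p = 0.00783, edgeR). PSME2, 1 of the subunits of the interferon-inducible activator PA28, stood at 129 and 105 CPM in RL-95-2 mimic and control and at 63.1 and 50.8 CPM in HEC-1-A mimic and control (1.04, SE 0.22, adjusted p = 0.0136, edgeR). Its partner PSME1 stood at 129 and 118 CPM in RL-95-2 mimic and control and at 69.7 and 67.4 CPM in HEC-1-A mimic and control (0.85, SE 0.22, adjusted p = 0.0273, edgeR). For all of these the RL-95-2 libraries lay above both HEC-1-A libraries.

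PSMB10, the inducible counterpart of PSMB7, stood at 18.6 and 13.6 CPM in RL-95-2 mimic and control and at 7.71 and 6.13 CPM in HEC-1-A mimic and control (1.21, SE 0.31, adjusted p = 0.0262, edgeR). PSMB9, the inducible counterpart of PSMB6, stood at 18.3 and 7.74 CPM in RL-95-2 mimic and control and at 4.07 and 3.65 CPM in HEC-1-A mimic and control (1.63, SE 0.42, adjusted p = 0.0248, edgeR). The RL-95-2 mimic library stands out for PSMB9, so its log2 ratio of the lines was 2.16 with mimic and 1.07 with control. Of the 5 genes, PSMB9 had the highest mimic ratio in RL-95-2 (2.35-fold, log2 ratio 1.23, 1.05 to 1.43) and an interval that spans 0 in HEC-1-A (0.15, -0.18 to 0.50). In the other 4 genes the mimic ratios were 0.13 to 0.46 in RL-95-2 and 0.05 to 0.33 in HEC-1-A, with like values in the 2 lines for PSME2 (0.30 and 0.31) and PSMB8 (0.22 and 0.24).

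**Figure D3:**
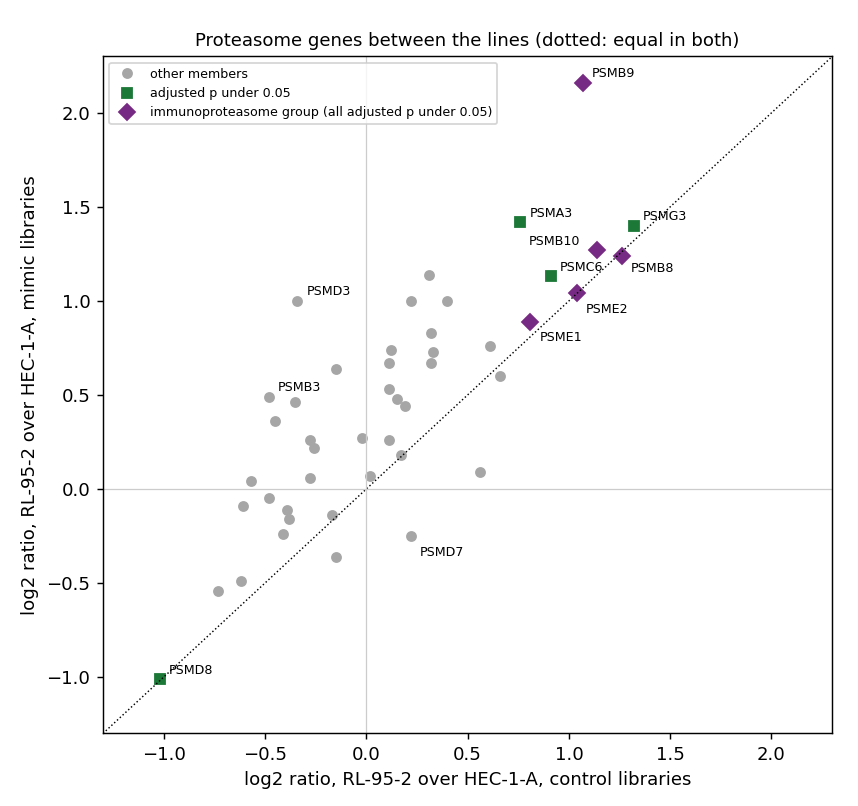
Log2 ratio of RL-95-2 over HEC-1-A for each tested proteasome gene, with mimic on the vertical axis and with control on the horizontal axis; diamonds are the 5 immunoproteasome genes, squares the other genes with adjusted p under 0.05, and the dotted line marks equal ratios. The diamonds lie at 0.81 or above on both axes and PSMD8 lies alone at the lower left, at -1.01 and -1.02.

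The promoters of PSMB10, PSME1 and PSME2 are shown because they are the immunoproteasome windows that hold GAAANNGAA, the core of the element bound by interferon regulatory factors. Capitals mark that motif and TGACNNNGC, on either strand and in the RefSeq windows described for PSMB9.

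PSMB10 (chr16:67936801-67937100, minus strand): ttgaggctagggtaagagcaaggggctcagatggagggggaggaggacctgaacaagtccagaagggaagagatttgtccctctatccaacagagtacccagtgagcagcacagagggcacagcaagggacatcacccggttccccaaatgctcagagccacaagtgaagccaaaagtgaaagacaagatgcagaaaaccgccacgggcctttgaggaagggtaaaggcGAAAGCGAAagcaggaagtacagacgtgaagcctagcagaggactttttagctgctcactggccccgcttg
PSME1 (chr14:24135944-24136243, plus strand): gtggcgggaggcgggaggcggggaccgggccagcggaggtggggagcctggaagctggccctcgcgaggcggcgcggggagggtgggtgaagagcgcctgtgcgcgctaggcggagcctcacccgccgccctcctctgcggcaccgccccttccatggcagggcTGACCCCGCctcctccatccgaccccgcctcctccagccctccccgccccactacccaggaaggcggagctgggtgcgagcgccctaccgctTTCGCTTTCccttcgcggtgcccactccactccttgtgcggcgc
PSME2 (chr14:24146561-24146860, minus strand): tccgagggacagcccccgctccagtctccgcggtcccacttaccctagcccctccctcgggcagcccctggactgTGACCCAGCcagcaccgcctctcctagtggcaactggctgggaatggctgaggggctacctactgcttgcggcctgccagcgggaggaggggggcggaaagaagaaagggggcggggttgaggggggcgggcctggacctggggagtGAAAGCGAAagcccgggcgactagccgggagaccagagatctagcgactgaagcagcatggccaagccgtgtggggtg

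The interferon motif starts at -21 in PSMB10, at 7 in PSME1 and at -28 in PSME2, and it was in none of the windows of PSMB8 and PSMB9 in these letters. Across the members it was in 7 of 43 windows (16.3%), against 8.11% of all promoters. Both PA28 windows held TGACNNNGC as well. PSMB9 (chr6:32844136-32859585, plus strand, GENCODE release 29) lies in the antigen-processing region with PSMB8 and the peptide transporter genes TAP1 and TAP2, and the RefSeq starts of PSMB9 and TAP1 are 488 bases apart on opposite strands. TAP1 stood at 108 and 104 CPM in RL-95-2 mimic and control and at 51.5 and 49.9 CPM in HEC-1-A mimic and control, higher in RL-95-2 in the edgeR test (log2 fold change 1.06, adjusted p = 0.0127). Its mimic ratio in RL-95-2 was 0.04 (-0.02 to 0.10), unlike the 1.23 of PSMB9 beside it.

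Regulators of this gene group differed between the lines in both directions. IRF1, an interferon-induced activator of PSMB9 and TAP1, was higher in RL-95-2, at 45.9 and 47.0 CPM in mimic and control against 19.9 and 17.8 CPM in HEC-1-A mimic and control (edgeR log2 fold change 1.30, adjusted p = 0.00752). NLRC5, the transactivator of MHC class I genes, was lower in RL-95-2, at 16.6 and 14.1 CPM in RL-95-2 mimic and control against 78.8 and 75.4 CPM in HEC-1-A mimic and control (-2.33, adjusted p = 7.15e-04, edgeR). Of the 4 neighbours and regulators described, 3 were higher in RL-95-2 (IRF1, TAP1 and TAP2) and 1 lower.

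Each inducible catalytic gene was set against its constitutive counterpart on the FPKM scale. PSMB8 made up 28.9% and 31.3% of the sum of PSMB8 and PSMB5 in RL-95-2 mimic and control, and 21.3% and 19.3% in HEC-1-A mimic and control. PSMB9 made up 18.0% and 11.7% of the sum with PSMB6 in RL-95-2 mimic and control, and 6.22% and 6.88% in HEC-1-A mimic and control. PSMB10 made up 11.5% and 10.3% of the sum with PSMB7 in RL-95-2 mimic and control, and 3.55% and 3.06% in HEC-1-A mimic and control. In all 3 pairs the constitutive gene was the more abundant in every library and both RL-95-2 libraries had the higher inducible share. Between transfections the share moved by the widest margin for PSMB9 in RL-95-2.

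**Figure D4:**
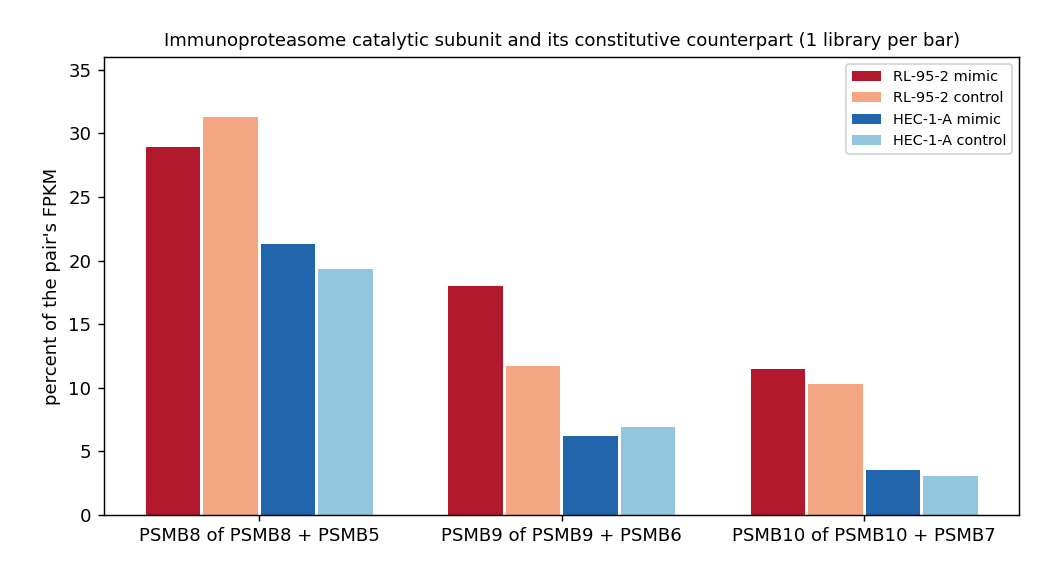
Share of the inducible catalytic gene in the summed FPKM of itself and its constitutive counterpart, in percent, with 1 bar per library in each of the 3 pairs. Bars of RL-95-2 are taller than those of HEC-1-A in each pair, from 28.9% and 31.3% against 21.3% and 19.3% for PSMB8 to 11.5% and 10.3% against 3.55% and 3.06% for PSMB10.

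Outside the immunoproteasome, 4 members passed the edgeR test between the lines. PSMG3, an assembly chaperone, was higher in RL-95-2 at 41.5 and 34.0 CPM in mimic and control against 15.7 and 13.6 CPM in HEC-1-A mimic and control (log2 fold change 1.36, SE 0.25, adjusted p = 0.00728, edgeR). PSMA3 was higher at 108 and 70.5 CPM in RL-95-2 mimic and control against 40.0 and 41.5 CPM in HEC-1-A mimic and control (1.10, SE 0.26, adjusted p = 0.0199, edgeR). The ATPase gene PSMC6 was higher by 1.02 (SE 0.23, adjusted p = 0.0158, edgeR). PSMD8, a lid subunit, was the only member called lower, at 123 and 112 CPM in RL-95-2 mimic and control against 248 and 226 CPM in HEC-1-A mimic and control (-1.01, SE 0.24, adjusted p = 0.0190, edgeR). The constitutive beta ring and the other regulators held no call, and the ratio of the lines had the same sign with mimic and with control in 36 of 47 members. RL-95-2 was the higher line for 35 of 47 members in the mimic libraries and for 26 in the control libraries, and the median ratio of the lines over the genes with a role was 0.28 in the fit, 0.47 with the control libraries left out and 0.11 with the mimic libraries left out.

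Genes that act with the proteasome but carry other names, 22 in a list of cofactors, shuttle receptors, ubiquitin genes and the NFE2L1 pathway, had ratios in RL-95-2 that were spread to both sides of 0. They had a median of -0.12 there, with 8 above and 14 below 0, and a median of 0.05 over 21 measured genes in HEC-1-A, with 12 above and 9 below. None passed the edgeR test for mimic over control, and UBB was the only one with an unadjusted p under 0.05 in edgeR, beside 1.05% of features. That result rests on the RL-95-2 libraries, since UBB had 3 counts with mimic and 0 with control in HEC-1-A. SEM1, a small lid subunit listed as SHFM1, stood at 57.3 and 33.0 CPM in RL-95-2 mimic and control (0.80, 0.70 to 0.89). POMP, the maturation factor of the core, stood at 88.2 and 66.6 CPM in RL-95-2 mimic and control (0.40, 0.33 to 0.47). ADRM1, a ubiquitin receptor of the cap, stood at 102 and 103 CPM in RL-95-2 mimic and control (-0.02, -0.08 to 0.04).

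NFE2L1, the transcription factor that drives proteasome genes when proteasome activity is low, had the lowest ratio of the list in RL-95-2, at 327 CPM with mimic and 729 CPM with control (0.449-fold, log2 ratio -1.16, -1.18 to -1.13). In HEC-1-A it stood at 549 CPM with mimic and 523 CPM with control (0.07, 0.04 to 0.10). VCP, the segregase that extracts NFE2L1 and other proteins from the endoplasmic reticulum, stood at 458 and 250 CPM in RL-95-2 mimic and control (0.87) and at 205 and 218 CPM in HEC-1-A mimic and control (-0.09). DDI2, the protease that activates NFE2L1, stood at 165 and 227 CPM in RL-95-2 mimic and control (-0.46), and NGLY1, which removes its sugars, was level at 29.5 and 29.3 CPM. The transcript of NFE2L1 and those of most subunits therefore had opposite ratios in RL-95-2; RNA levels do not give the activity of the factor.

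Transcripts of the shuttle receptors RAD23B, UBQLN1, UBQLN4 and UBQLN2, whose proteins carry substrates to the proteasome, had ratios of -0.58, -0.39, -0.14 and 0.22 in RL-95-2 and 0.08, 0.08, -0.05 and -0.05 in HEC-1-A. AKIRIN2, which brings proteasomes into the nucleus, stood at 16.4 and 29.1 CPM in RL-95-2 mimic and control (-0.82) and at 60.0 and 55.7 CPM in HEC-1-A mimic and control (0.11). The cap-bound deubiquitinases UCHL5 and USP14 had ratios of -0.26 and -0.05 in RL-95-2 and 0.18 and 0.23 in HEC-1-A.

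**Figure D5:**
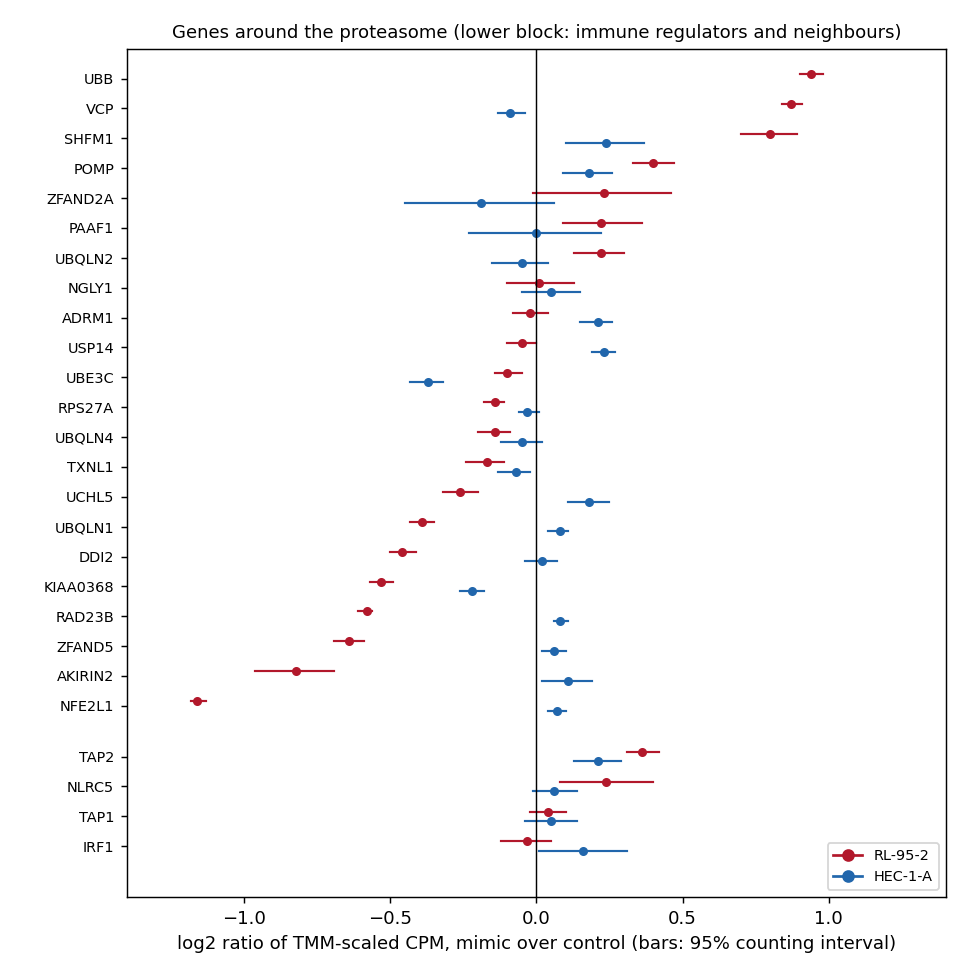
Log2 ratio of TMM-scaled CPM, mimic over control, for 22 genes that act with the proteasome (upper block, ordered by RL-95-2) and 4 neighbours and regulators of the immunoproteasome genes (lower block), with exact 95% counting intervals. RL-95-2 (red) spans -1.16 for NFE2L1 to 0.94 for UBB, HEC-1-A (blue) spans -0.37 for UBE3C to 0.24 for SHFM1, and UBB has no blue point because it was not measured there.

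UBB, a polyubiquitin gene, was nearly without counts in HEC-1-A. It had 17866 counts with mimic and 7369 counts with control in RL-95-2, against 3 counts with mimic and 0 with control in HEC-1-A. That is 362 and 189 CPM in RL-95-2 mimic and control. With mimic the ratio of the lines was 5408-fold (95% counting interval 1850 to 26225), and with control RL-95-2 was at least 2085-fold higher than the floor of 3 counts per library in HEC-1-A (edgeR over both, adjusted p = 7.98e-05). Ubiquitin repeats are nearly identical between genes and pseudogenes, so the assignment of reads to UBB is uncertain.

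The 3 members left stand outside the groups described. PSMA8, the alpha subunit of testis, had 0 counts in all 4 libraries, which allows up to 0.0609 and 0.0769 CPM in RL-95-2 mimic and control and 0.0670 and 0.0906 CPM in HEC-1-A mimic and control at 3 counts each. PSMB11, the beta subunit of the thymus, had 3 counts in HEC-1-A cells with mimic and 0 in the others. These 2 were not tested by edgeR and take no part in the medians. PSMC3IP stood at 18.1 and 23.8 CPM in RL-95-2 mimic and control (-0.39, -0.53 to -0.26) and at 24.1 and 28.6 CPM in HEC-1-A mimic and control (-0.25, -0.37 to -0.12), lower with the mimic in both lines, and passed no test.

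Some members share sequence or exons with other genes, and the strand setting of the counting is not given in the sources used here. In GENCODE release 29, 24 members overlap exons of another gene, 20 of them on the opposite strand, and 12 have like-named pseudogenes. The opposite-strand gene NRDE2 covers 75.8% of the exon bases of PSMC1, and a processed transcript covers 30.7% of those of PSMD7 (chr16:74296775-74306288, plus strand). On the same strand, AC040162.1 covers 34.8% of the exon bases of PSMB10 and AC018523.2 covers 24.7% of those of PSMA1. NRDE2 is itself a counted feature, whereas AC040162.1, AC018523.2 and the processed transcript at PSMD7 are not. MLX, a counted feature on the opposite strand, covers 29.9% of the exon bases of PSMC3IP. The values of PSMC1, PSMB10, PSMA1 and PSMC3IP and the low ratio of PSMD7 in RL-95-2 are uncertain for that reason. By how much was not tested. PSMB8 and PSMB9 share 139 exon bases on opposite strands, 4.52% of the exon bases of PSMB9. PSMC1 has 13 like-named pseudogenes and PSMA6 has 4. PSMD3 (chr17:39980797-39997960, plus strand) has no like-named pseudogene, and PSMB3 (chr17:38752736-38764231, plus strand) has 1.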

How the data were processed

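The 4 libraries were grouped by the cell line and transfection in the labels. Gene-level raw counts and FPKM values, both deposited by the authors, cover the same libraries. HISAT2, CASAVA and the GRCh38 (hg38) build are named, per the submitters' processing notes, without their roles. How reads were assigned to genes, with which annotation and whether by strand, is not given in the sources used here. Totals ranged from 33575882 to 46220053 counts.

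Counts were fitted on all features with edgeR 4.0.16 (R 4.3.3): TMM scaling, filterByExpr by transfection (15957 features kept), terms for line and transfection, quasi-likelihood F test, Benjamini-Hochberg FDR of 0.05, 1 residual and 5.44 prior degrees of freedom. The line was the block, since mimic and control libraries pair by the line in their labels. Each SE printed beside an edgeR log2 fold change is its absolute value divided by the square root of the F statistic. With these terms the residual of the 4 libraries is how far the ratio of mimic over control differs between the 2 lines. The p-values rest on that difference, moderated by the spread over all features, and not on replicate cultures. A difference in 1 line only therefore counts as spread. Within a line no p-value was computed: log2 ratios used TMM-scaled CPM with a prior count of 2, and exact 95% intervals of the counts, which like the floors of 3 counts cover counting error only. FPKM values served for levels between genes and for immunoproteasome shares.

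Alternatives were DESeq2 1.42.0, limma 3.58.1 on log2(FPKM + 1) and log2(FPKM + 0.1), RLE and library-total scaling, other filters and prior counts, no replicate block, and each line or transfection left out. Removal of GC and length trends was chosen after seeing the data. The fit was also run on simulated counts, drawn with the common dispersion and, apart from seeded changes, the same mean for a gene in every library. Unlike these data they held no broad difference between the lines. That run therefore gives no measure of how the fit performs here. Gene positions came from GENCODE release 29 and promoter windows from RefSeq (GRCh38.p14). Every member may be named; described in full are the highest and lowest ratios of each role group in each line, the catalytic and the immunoproteasome genes, and further members or listed genes chosen after their values were seen. The members and all gene lists were chosen with earlier results of these data known. Some genes of these lists are not reported here and take no part in the counts and medians of the lists. Tables and figures were made with Python 3.11.15, pandas 2.3.3, numpy 2.4.6, scipy 1.17.1 and matplotlib 3.10.9.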

Additional observations from a re-analysis of the deposited data

Results flagged for a closer look

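In 10 proteasome members the mimic ratio had opposite signs in the 2 lines, with both counting intervals clear of 0, beside 26.9% of all features measured in both lines and 35.8% of those that averaged 50 CPM or more, so the count of 10 among 46 measured genes with a role is no more than that background. The difference, as the log2 ratio in RL-95-2 minus that in HEC-1-A, was 0.83 for PSMA1, 0.42 for PSMC1, 0.51 for PSMC3, 0.81 for PSMC4, 0.52 for PSMC5, 0.79 for PSMD1, 1.34 for PSMD3, 0.54 for PSME3 and 0.43 for PSMF1. In these 9 the ratio was above 0 in RL-95-2 and below 0 in HEC-1-A, and 4 of them encode ATPases of the cap. PSME4 ran the other way, with -0.47.

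The same held for 8 of 21 measured genes that act with the proteasome, a share near that of the features at 50 CPM or more. The ratio was below 0 in RL-95-2 and above 0 in HEC-1-A for UCHL5 (-0.44), USP14 (-0.28), AKIRIN2 (-0.93), ZFAND5 (-0.70), NFE2L1 (-1.23), RAD23B (-0.67) and UBQLN1 (-0.46). It was above 0 in RL-95-2 and below 0 in HEC-1-A for VCP (0.96). On the FPKM scale the signs were not opposite for UCHL5, at 28.6 and 31.5 FPKM in HEC-1-A mimic and control, and for USP14, at 31.9 and 28.9 FPKM in RL-95-2 mimic and control. These differences were not tested: each ratio compares 1 library with 1.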

How the results depend on the processing

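No member was called for mimic over control in any fit over both lines; over all features DESeq2 called 2, limma on log2(FPKM + 0.1) called 3 and the other settings 0. Between the lines the 9 members called, all 5 immunoproteasome genes among them, were called in all 9 settings. The count called lower was 2 with DESeq2 and 3 with no replicate block (13 calls in all), and the count of members at an unadjusted p under 0.05 for mimic over control was 1 with DESeq2 and 1 with limma on log2(FPKM + 0.1). The medians over the RL-95-2 role groups kept their sign in every setting, with 43 or 44 of the genes above 0; in HEC-1-A the count above 0 ran between 26 (GC and length trends removed) and 32. They moved up where the median of all features did, to 0.13 by library total, 0.11 on log2(FPKM + 1) and 0.14 on log2(FPKM + 0.1). By library total they were 0.60 (alpha ring), 0.81 (beta ring), 0.57 (ATPases), 0.51 (non-ATPases), 0.43 (immunoproteasome), 0.47 (other regulators), 0.41 (assembly), 0.69 (core), 0.56 (cap) and 0.53 (all). On log2(FPKM + 1) they were 0.78 (beta ring), 0.56 (ATPases), 0.52 (non-ATPases), 0.44 (immunoproteasome), 0.42 (assembly), 0.62 (core), 0.54 (cap) and 0.49 (all). On log2(FPKM + 0.1) these 8 were 0.80, 0.57, 0.53, 0.44, 0.44, 0.63, 0.54 and 0.51. With GC and length trends removed, chosen after seeing the data, they were 0.56 (alpha ring), 0.75 (beta ring) and 0.49 (non-ATPases), and PSMB3 came to 0.93, under 2-fold. In HEC-1-A the other regulators moved to -0.20 and -0.21 on the FPKM scales, where PSME3 stood at 77.9 FPKM with mimic and 109 FPKM with control; the cause was not tested. The sign of PSMD14 in RL-95-2 turned by library total (0.12), on both FPKM scales (0.13 each) and without the GC and length trends (0.15). The sign on the FPKM scale also differed from that of the counts for PSMG4 in RL-95-2 and for PSMA6, PSMB1, PSMD7, PSMD9 and PSME1 in HEC-1-A.

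Each result within a line rests on 1 library against 1, and a culture that differs for reasons other than the mimic cannot be told apart from one that responded to it. The median ratio of the members was 0.40 in RL-95-2 and 0.09 in HEC-1-A, so leaving out either line decides the size of the mean response. PSMB9 and PSMB10 had the lowest CPM in HEC-1-A among the measured members, which limits the precision of their ratios there.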
